A study of Mus musculus with 16 samples.

Results

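The expression of 9 genes of the interleukin-1 (IL-1) family and its receptors was examined in bone marrow-derived dendritic cells (BMDCs) in which the STING pathway was stimulated. The genes were taken by name, with earlier results of these data known: Il1a, Il1b, Il1rn, Il1r1, Il1r2, Il1rap, Il18, Il18bp and Il1rl1. All 9 were found among the 23356 genes of the deposited table, and all 9 reached the level needed to be compared in every comparison. BMDCs were grown for 6 days with GM-CSF and IL-4 from bone marrow of mice that were wild-type (WT) or lacked Tmem173 (Tmem173-/-), Irf1 (Irf1-/-) or both Irf3 and Irf7 (Irf3/7-/-), so that every group shared the cytokines of the culture. The study's methods name the strain C57BL/6 for the WT mice and give no strain background for the knockouts. Tmem173 encodes STING, the sensor of the bacterial second messenger c-di-GMP, and the IRFs are transcription factors that act downstream of it. Cells were left untreated or received c-di-GMP during 18 h, at 25 μg/ml by the sample labels, while the legends of the study give a higher dose. The study's methods give the mice as matched for sex and aged 6 to 12 weeks, the number of animals behind each culture is not stated in the labels or methods read here, and the knockouts are constitutive, so the genes were absent during the growth of the cells as well as during stimulation.

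There were 16 samples by the labels, with 2 samples in every one of the 8 conditions. The authors combined the samples of a condition into 1 FPKM value (fragments mapped to a gene, scaled by transcript length and by the total of mapped fragments), given with a confidence interval, so no spread between replicates could be computed and no p-value is given. Read depth cannot be taken from FPKM. In its place, the distance from the FPKM to its bounds had a median of 25.2% to 25.7% of the FPKM in the 8 conditions, over 4710 genes with at least 10 FPKM throughout, and lay between 22.5% and 54.8% for the 9 IL-1 family genes. Differences were taken on the log2(FPKM + 0.1) scale, and a gene counted as called higher or called lower where it differed more than 2-fold with no overlap between the intervals of both conditions. Values in brackets after an FPKM are the bounds of that interval, and ranges given after a ratio are those that the bounds allow. Tmem173 was at 8.97 and 7.49 FPKM in Tmem173-/- BMDCs, untreated and treated, against 103 and 118 in WT BMDCs. Irf1 was at 25.9 and 116 FPKM in Irf1-/- BMDCs against 149 and 245 in WT BMDCs, and at 24.1 and 23.3 FPKM in Tmem173-/- BMDCs. In Irf3/7-/- BMDCs Irf7 was at 1.07 and 4.97 FPKM against 15.2 and 687, whereas Irf3 was at 7.74 FPKM untreated and 20.2 treated, against 19.9 and 15.8 in WT BMDCs. With c-di-GMP Irf1 was called higher in Irf1-/- BMDCs, by 4.46-fold, and Irf3 in Irf3/7-/- BMDCs, by 2.61-fold. Treated Irf1-/- BMDCs were still called lower in Irf1 than treated WT BMDCs, whereas Irf3 was not called between treated Irf3/7-/- and WT BMDCs. A value over a whole gene includes exons outside a deletion. The Irf3 value of the treated cells therefore does not check their label, and the Irf1 value does so only in part. The cause of these rises was not tested. All 7 dendritic cell markers examined, among them Itgax and Zbtb46, were at 1 FPKM or more in every condition. The summed FPKM of the marker lists lay between 4479 and 7287 for dendritic cells, 168 and 468 for macrophages (6 genes), 141 and 749 for eosinophils (2 genes), 0.266 and 4.14 for B cells (3 genes) and 0.115 and 6.89 for stromal cells (5 genes), and the neutrophil, mast cell and lymphocyte lists are given beside Il1r2, Il1rl1 and Il18bp.

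IL-1α and IL-1β are agonists that share a receptor, IL-1R1, which signals only after it has bound the accessory protein IL-1RAP. The pathway is restrained at several levels: the receptor antagonist encoded by Il1rn occupies IL-1R1 without signalling, the decoy receptor IL-1R2 captures the ligand, and IL-18 is held by the soluble IL-18 binding protein. ST2, the product of Il1rl1, is the receptor of IL-33 and also uses IL-1RAP. In dendritic cells these cytokines link recognition of microbes to the polarization of T cells. RNA levels do not show the release of IL-1β and IL-18, whose precursors have to be cleaved.

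Promoter sequences were available for all 9 genes, in 13 windows that run from 250 bases before to 50 bases after a start site (RefSeq, GRCm38.p6). Windows of 5 genes are shown 5′ to 3′ on the strand of the gene, because these genes cover the main patterns described here. Il1a (chr2:129309923-129310222, minus strand) and Il1b (chr2:129371090-129371389, minus strand) lie next to each other in the same orientation and were called together in WT BMDCs. Il18bp (chr7:102018183-102018482, minus strand) differed most between Irf1-/- and WT BMDCs. Il1rap (chr16:26581455-26581754, plus strand) had the narrowest range of levels. Il1rl1 (chr1:40439379-40439678, plus strand) is shown at the more downstream of its start sites, where the locus of the deposited table begins. Capitals mark the matched motif.
Il1a: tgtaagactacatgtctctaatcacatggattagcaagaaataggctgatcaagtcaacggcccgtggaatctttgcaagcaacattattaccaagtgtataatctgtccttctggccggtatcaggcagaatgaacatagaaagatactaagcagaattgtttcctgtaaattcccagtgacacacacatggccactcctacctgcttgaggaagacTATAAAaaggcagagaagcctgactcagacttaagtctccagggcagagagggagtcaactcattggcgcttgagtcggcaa
Il1b: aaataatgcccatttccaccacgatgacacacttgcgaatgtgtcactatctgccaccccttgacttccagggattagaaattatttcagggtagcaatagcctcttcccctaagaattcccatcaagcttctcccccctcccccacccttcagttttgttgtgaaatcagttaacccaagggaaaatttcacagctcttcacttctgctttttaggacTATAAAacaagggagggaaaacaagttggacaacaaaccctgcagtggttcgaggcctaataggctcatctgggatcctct
Il18bp: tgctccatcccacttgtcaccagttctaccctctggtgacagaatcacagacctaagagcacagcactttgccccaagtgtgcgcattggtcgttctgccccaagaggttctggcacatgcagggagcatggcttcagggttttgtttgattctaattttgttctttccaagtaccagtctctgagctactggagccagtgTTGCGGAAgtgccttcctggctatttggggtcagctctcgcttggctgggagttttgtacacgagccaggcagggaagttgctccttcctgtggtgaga
Il1rap: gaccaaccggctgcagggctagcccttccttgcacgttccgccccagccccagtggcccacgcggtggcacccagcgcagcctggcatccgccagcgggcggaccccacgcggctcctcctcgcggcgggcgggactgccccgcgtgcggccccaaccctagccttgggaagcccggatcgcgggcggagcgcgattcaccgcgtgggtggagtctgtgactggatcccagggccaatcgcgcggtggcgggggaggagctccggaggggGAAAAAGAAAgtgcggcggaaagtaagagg
Il1rl1: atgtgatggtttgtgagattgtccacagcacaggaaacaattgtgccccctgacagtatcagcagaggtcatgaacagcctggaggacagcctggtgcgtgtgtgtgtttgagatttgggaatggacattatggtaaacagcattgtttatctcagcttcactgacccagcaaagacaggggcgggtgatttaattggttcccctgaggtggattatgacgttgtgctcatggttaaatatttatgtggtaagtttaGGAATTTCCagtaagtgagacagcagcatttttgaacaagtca

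In these windows the capitals are TATAAA in Il1a and Il1b, a match to the C/EBP motif TTNNGCAA in Il18bp (read on the other strand), the interferon-stimulated response element GAAA-NN-GAAA in Il1rap, and the κB motif GGANTTTCC in Il1rl1. Each of these windows held a single match, so no matches overlapped. TATAAA began 32 bases before the start of Il1a and 31 bases before that of Il1b. Over all 32851 promoter windows of this length, searched on both strands, TATAAA was found in 13.6%, TTNNGCAA in 10.8%, GAAA-NN-GAAA in 3.44% and GGANTTTCC in 1.25%. TATAAA was also found, read on the other strand, in a window of Il1rn and in that of Il18. These matches began 14 bases after the start in Il1rn and 175 bases before the start in Il18. The motif TATAAA was added to the search after the sequences had been seen. TTNNGCAA was also found in Il1r1 and in the upstream window of Il1rl1, and the STAT motif TTCNNNGAA, present in 8.30% of all windows, in Il1r2. GAAA-NN-GAAA, to which IRFs and the ISGF3 complex are known to bind, was found in 1 of the 13 windows, that of Il1rap. It began 20 bases after the start of Il1rap, and the GGANTTTCC match began 7 bases after the start shown for Il1rl1. These are matches of letters only, and binding was not measured here.

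In WT BMDCs c-di-GMP raised the agonists, the antagonist, IL-18 and its binding protein, and lowered 3 of the 4 receptor genes. Il1a, Il1b, Il1rn, Il18 and Il18bp were called higher, and Il1r1, Il1r2 and Il1rl1 were called lower. Among the 11201 genes compared, 10.5% were called higher and 9.96% lower. The median log2 change of the 9 genes was 1.78, beside 0.00 for all genes compared. In Tmem173-/- BMDCs none of the 9 genes was called, where 0.046% of 10867 genes were called higher and 0.0092% lower. In Irf1-/- BMDCs c-di-GMP raised Il1rn, Il1rap and Il18bp and lowered Il1r1 and Il1rl1, against 9.67% of genes called higher and 7.81% lower. In Irf3/7-/- BMDCs it raised Il1a, Il1b, Il1rn, Il18 and Il18bp and lowered Il1rl1, against 10.2% of genes called higher and 7.68% lower. The number of genes called in a direction was thus 5 higher and 3 lower in WT, 3 higher and 2 lower in Irf1-/-, and 5 higher and 1 lower in Irf3/7-/- BMDCs.

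**Figure D1:**
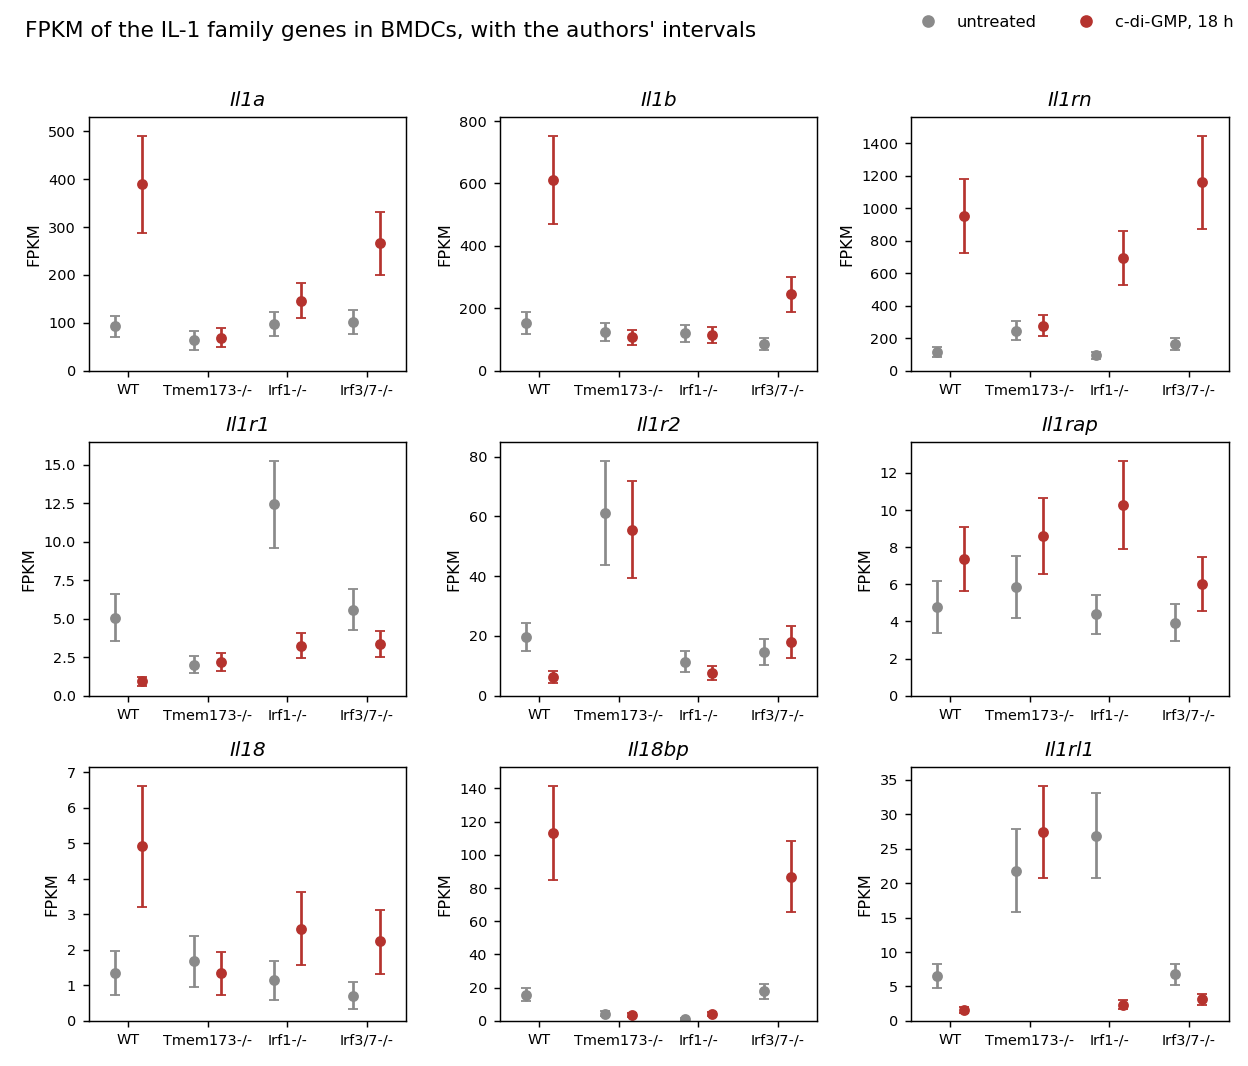
FPKM of each of the 9 IL-1 family genes (linear axis, starting at 0) in the 4 genotypes, untreated (grey) or after 18 h with c-di-GMP (red), with 1 pooled value per condition. Bars are the authors' confidence intervals, and in Tmem173-/- BMDCs the red and grey intervals overlap for all 9 genes.

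Il1b, the gene of the agonist that is cleaved by caspase-1, was at 154 FPKM [119 to 189] in untreated WT BMDCs and reached 611 FPKM [469 to 753] when stimulated. It was at 123 and 107 FPKM in Tmem173-/-, at 120 and 113 FPKM in Irf1-/- and at 85.9 and 245 FPKM in Irf3/7-/- BMDCs, in each case untreated first and treated second. The induction was 3.97-fold (2.48 to 6.35) in WT and 2.85-fold (1.80 to 4.52) in Irf3/7-/- BMDCs. In Irf1-/- BMDCs the treated and untreated intervals overlapped, with a ratio of 0.937 (0.588 to 1.49), and no induction was called. In the order of its levels the treated WT condition stood apart from treated Irf3/7-/- BMDCs, and that condition stood apart, by a gap of under 1 FPKM, from untreated WT BMDCs. The intervals of neighbours among the remaining 6 conditions overlapped.

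Il1a, the gene of the agonist that is active without cleavage by caspase-1, went from 92.7 FPKM [71.0 to 114] to 390 FPKM [288 to 491] in WT BMDCs. It was at 62.9 and 68.8 FPKM in Tmem173-/-, at 97.4 and 146 FPKM in Irf1-/- and at 101 and 266 FPKM in Irf3/7-/- BMDCs. The log2 change was 2.07 in WT, 0.59 in Irf1-/- and 1.4 in Irf3/7-/- BMDCs, and the change in Irf1-/- BMDCs was not called because the intervals overlapped. Treated WT and treated Irf3/7-/- BMDCs were the highest conditions, their intervals overlapped, and both stood apart from the other 6. In treated Irf3/7-/- BMDCs Il1b was called lower than in treated WT BMDCs and Il1a was not.

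Il1rn, the gene of the receptor antagonist, was at 114 FPKM [82.9 to 144] in untreated and 952 FPKM [723 to 1181] in treated WT BMDCs. It was at 93.0 and 694 FPKM in Irf1-/-, at 166 and 1161 FPKM in Irf3/7-/- and at 244 and 277 FPKM in Tmem173-/- BMDCs. Its induction was 8.38-fold (5.01 to 14.2) in WT, 7.46-fold (4.63 to 12) in Irf1-/- and 6.99-fold (4.29 to 11.3) in Irf3/7-/- BMDCs. The intervals of the 3 treated conditions overlapped between neighbours, and treated Irf1-/- BMDCs stood apart from the next condition in order, treated Tmem173-/- BMDCs. In the same Irf1-/- cells in which Il1b had no called change, Il1rn therefore had a change of 2.90 on the log2 scale.

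The ratio of Il1rn to Il1b FPKM gives the antagonist relative to the agonist at the level of RNA. It was 0.738 (0.439 to 1.21) in untreated and 1.56 (0.959 to 2.52) in treated WT BMDCs. In Irf1-/- BMDCs it was 0.774 (0.487 to 1.23) untreated and 6.16 (3.82 to 9.90) treated, so treated Irf1-/- BMDCs lay above treated WT BMDCs without overlap of the ranges. In Irf3/7-/- BMDCs the ratio was 1.93 (1.22 to 3.06) untreated and 4.74 (2.90 to 7.65) treated, again above treated WT BMDCs. In Tmem173-/- BMDCs it was 1.98 (1.22 to 3.20) and 2.58 (1.61 to 4.10). The ratio of Il1b to Il1a was 1.66 and 1.57 in WT, 1.23 and 0.770 in Irf1-/-, 0.852 and 0.921 in Irf3/7-/- and 1.96 and 1.56 in Tmem173-/- BMDCs, and its range in each treated knockout overlapped that in treated WT BMDCs.

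**Figure D2:**
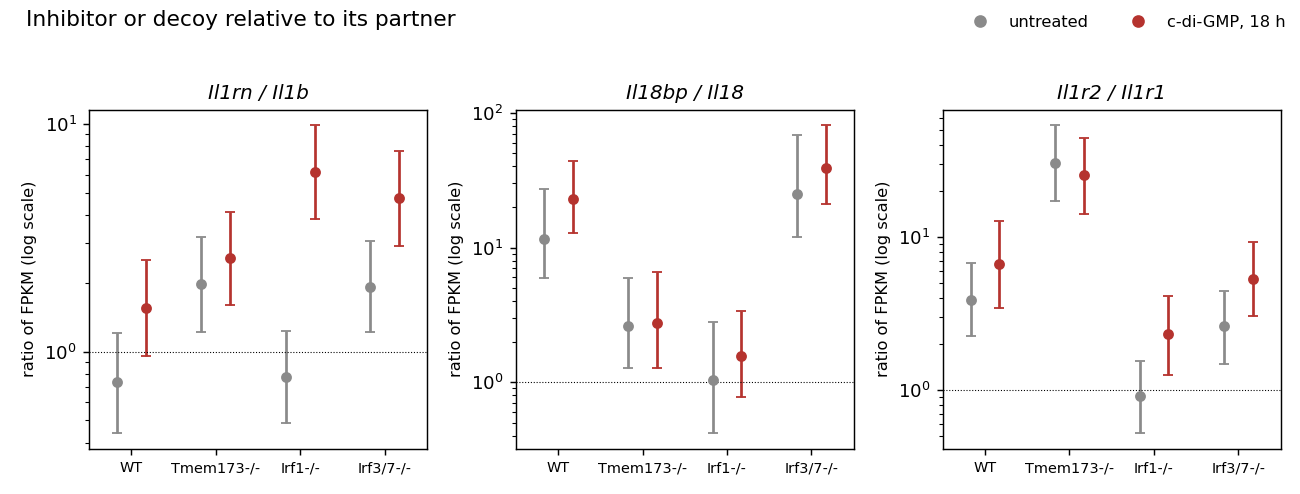
Ratio of the FPKM of an inhibitor or decoy to that of its partner (log axis, dotted line at 1) for Il1rn to Il1b, Il18bp to Il18 and Il1r2 to Il1r1, untreated (grey) and treated (red), in 4 genotypes. Bars run between the ratios that the authors' interval bounds allow, and the treated Irf1-/- point is the highest for Il1rn to Il1b (6.16) and the lowest treated point for Il18bp to Il18 (1.56).

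Il18bp, the gene of the secreted protein that neutralizes IL-18, had the widest range of the 9 genes, 94.4-fold between its highest and lowest condition. It was at 15.9 FPKM [11.7 to 20.0] in untreated and 113 FPKM [84.7 to 141] in treated WT BMDCs, and at 17.7 and 86.9 FPKM in Irf3/7-/- BMDCs. In Irf1-/- BMDCs it was at 1.20 FPKM [0.709 to 1.67] untreated and 4.04 FPKM [2.84 to 5.28] treated, and in Tmem173-/- BMDCs at 4.42 and 3.68 FPKM. Both Irf1-/- conditions and both Tmem173-/- conditions lay below untreated WT BMDCs without overlap. Within Irf1-/- BMDCs Il18bp was still called higher after c-di-GMP, by 3.37-fold (1.70 to 7.44), from its low start. The summed FPKM of 7 markers of T and NK cells was also lower in Irf1-/- and Tmem173-/- than in WT BMDCs. It was 465 and 387 in WT, 427 and 1050 in Irf3/7-/-, 66.1 and 56.9 in Irf1-/-, and 16.6 and 14.0 in Tmem173-/- BMDCs. In WT BMDCs the sum was carried mostly by Gzma and fell with c-di-GMP, whereas Il18bp rose. The members of that list differed. Cd3e was at 9.18 and 5.41 FPKM in WT and at 0.641 and 0.479 FPKM in Irf1-/- BMDCs. Thy1 was at 89.5 and 40.5 FPKM in WT and at 58.8 and 47.2 FPKM in Irf1-/- BMDCs. Gzma, a granzyme gene of cytotoxic lymphocytes, was at 349 and 329 FPKM in WT BMDCs and listed at 0 in both Tmem173-/- conditions, and the part of such cells in the Il18bp values was not tested. In bulk samples fewer cells of a type and less RNA per cell cannot be told apart.

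Il18 was among the weakly expressed of the 9 genes. It was at 1.36 FPKM [0.735 to 1.97] and 4.92 FPKM [3.21 to 6.61] in WT, at 1.68 and 1.34 FPKM in Tmem173-/-, at 1.15 and 2.60 FPKM in Irf1-/- and at 0.713 and 2.25 FPKM in Irf3/7-/- BMDCs. Its induction was called in WT and Irf3/7-/- BMDCs and was 2.26-fold with overlapping intervals (0.919 to 6.08) in Irf1-/- BMDCs. With a pseudocount of 1 FPKM the call in Irf3/7-/- BMDCs was lost. No condition stood apart from its neighbour in the order of Il18 levels. The Il18 locus of the deposited table begins 10541 bases downstream of the annotated gene start, so fragments of the most upstream exon may be missing from its FPKM. The ratio of Il18bp to Il18 was 23.0 (12.8 to 44.0) in treated WT, 38.7 (21.1 to 81.2) in treated Irf3/7-/-, 2.74 (1.28 to 6.64) in treated Tmem173-/- and 1.56 (0.782 to 3.38) in treated Irf1-/- BMDCs. The ranges of treated Tmem173-/- and treated Irf1-/- BMDCs did not overlap that of treated WT BMDCs, whereas that of treated Irf3/7-/- BMDCs did.

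Among the receptors, Il1r1, the signalling receptor of both agonists, fell in WT BMDCs from 5.08 FPKM [3.57 to 6.59] to 0.925 FPKM [0.641 to 1.21]. It was at 12.4 and 3.26 FPKM in Irf1-/-, at 5.58 and 3.35 FPKM in Irf3/7-/- and at 2.0 and 2.20 FPKM in Tmem173-/- BMDCs. The fall was 5.49-fold (2.96 to 10.3) in WT and 3.82-fold (2.35 to 6.27) in Irf1-/- BMDCs. In Irf3/7-/- BMDCs the intervals did not overlap, but the log2 change of -0.72 was within the 2-fold limit and was not called. Treated WT BMDCs were the lowest condition and stood apart from the next, and untreated Irf1-/- BMDCs were the highest and stood apart as well.

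Il1r2, the gene of the decoy receptor, went from 19.6 FPKM [14.9 to 24.3] to 6.16 FPKM [4.14 to 8.21] in WT BMDCs. It was at 11.3 and 7.55 FPKM in Irf1-/-, at 14.6 and 17.8 FPKM in Irf3/7-/- and at 61.1 and 55.5 FPKM in Tmem173-/- BMDCs. The fall was called in WT BMDCs and in no knockout. The summed FPKM of 7 neutrophil markers, carried almost entirely by S100a8 and S100a9, was 4072 and 1904 in WT, 2551 and 1415 in Irf1-/-, 2310 and 1452 in Irf3/7-/- and 19817 and 14393 in Tmem173-/- BMDCs. Of the 7 markers 5 (S100a8, S100a9, Camp, Ngp and Csf3r) were highest in the Tmem173-/- conditions, as Il1r2 was. The list did not move as a whole: Cxcr2 was at 72.4 and 7.20 FPKM in WT and at 15.4 and 16.4 FPKM in Tmem173-/- BMDCs, and in WT BMDCs Camp was at 18.8 and 37.0, Ngp at 93.4 and 104 and Csf3r at 2.25 and 4.85 FPKM. IL-1R2 is known to be abundant on neutrophils, and the part of these cells in the Il1r2 values was not tested. The ratio of Il1r2 to Il1r1 was 3.86 (2.26 to 6.79) and 6.66 (3.43 to 12.8) in WT, 30.5 (17.2 to 54.0) and 25.3 (14.3 to 44.2) in Tmem173-/-, 0.912 (0.519 to 1.54) and 2.32 (1.25 to 4.11) in Irf1-/- and 2.61 (1.47 to 4.45) and 5.32 (3.04 to 9.23) in Irf3/7-/- BMDCs. The range in untreated Irf1-/- BMDCs lay below, and those of both Tmem173-/- conditions above, the range of their WT counterparts.

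Il1rl1, which encodes the IL-33 receptor ST2, was at 6.55 FPKM [4.78 to 8.31] and 1.55 FPKM [1.12 to 1.98] in WT BMDCs. It was at 26.9 FPKM [20.7 to 33.1] and 2.36 FPKM [1.74 to 2.98] in Irf1-/-, at 6.74 and 3.14 FPKM in Irf3/7-/- and at 21.8 and 27.4 FPKM in Tmem173-/- BMDCs. The levels formed 3 sets whose neighbouring intervals did not overlap: both Tmem173-/- conditions with untreated Irf1-/- BMDCs, then untreated Irf3/7-/- and WT BMDCs, and then the treated conditions of WT, Irf1-/- and Irf3/7-/- BMDCs. The fall was 4.22-fold (2.41 to 7.40) in WT, 11.4-fold (6.96 to 19.0) in Irf1-/- and 2.15-fold (1.33 to 3.5) in Irf3/7-/- BMDCs, and the last of these calls was lost with a pseudocount of 1 FPKM. ST2 is also carried by mast cells and basophils, and the summed FPKM of 7 of their markers was 46.6 and 126 in WT, 42.1 and 102 in Irf1-/-, 104 and 169 in Irf3/7-/- and 56.1 and 47.0 in Tmem173-/- BMDCs. The members of that list differed: Hdc was at 3.45 and 79.1 FPKM in WT and 2.83 and 43.2 FPKM in Irf1-/- BMDCs. Kit was at 1.38 and 0.624 FPKM in WT, 2.27 and 1.39 FPKM in Irf1-/- and 2.39 and 3.21 FPKM in Tmem173-/- BMDCs. In Irf3/7-/- BMDCs Kit was at 0.868 and 1.47 FPKM. Fcer1a, Ms4a2, Cpa3, Mcpt8 and Gata2 were each highest in treated Irf3/7-/- BMDCs. Each of them was higher treated than untreated in WT and Irf1-/- BMDCs. Mcpt8, for example, was at 23.3 and 24.5 FPKM in WT and 16.3 and 26.0 FPKM in Irf1-/- BMDCs. It was at 47.5 and 74.0 FPKM in Irf3/7-/- and 28.4 and 20.2 FPKM in Tmem173-/- BMDCs. The part of these cells in the Il1rl1 values was not tested. The deposited locus of Il1rl1 begins 10079 bases downstream of the annotated gene start, so transcripts from the upstream start are counted only over the part they share.

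Il1rap, the shared accessory chain, was at 4.77 FPKM [3.37 to 6.18] and 7.34 FPKM [5.63 to 9.06] in WT, 5.85 and 8.60 FPKM in Tmem173-/-, 4.38 and 10.3 FPKM in Irf1-/- and 3.93 and 6.00 FPKM in Irf3/7-/- BMDCs. Its treated value was the higher of the 2 in all 4 genotypes, also in Tmem173-/- BMDCs, but the change was called only in Irf1-/- BMDCs, where it was 2.35-fold (1.45 to 3.82). The highest and lowest conditions differed 2.61-fold, the narrowest range of the 9 genes, and the intervals of all neighbours in the order overlapped. The difference in its response between genotypes was not tested.

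Treated knockout BMDCs were then compared with treated WT BMDCs, to ask which of these levels rest on STING, IRF1 or IRF3 and IRF7. The 3 comparisons share the treated WT samples, so their calls are not independent. In treated Tmem173-/- BMDCs Il1r1, Il1r2 and Il1rl1 were higher and Il1a, Il1b, Il1rn, Il18 and Il18bp were lower than in WT, where 12.9% of 11318 genes were called higher and 13.5% lower. In treated Irf1-/- BMDCs Il1r1 was higher and Il1a, Il1b and Il18bp were lower, where 2.65% of 11079 genes were called higher and 4.91% lower. In treated Irf3/7-/- BMDCs Il1r1 and Il1r2 were higher and Il1b and Il18 were lower, where 4.61% of 11209 genes were called higher and 2.69% lower. The median log2 difference of the 9 genes was -1.78 for Tmem173-/-, -0.46 for Irf1-/- and -0.29 for Irf3/7-/-, beside 0.02, 0.02 and -0.02 for all genes compared. Il1b and Il1r1 were called in all 3 comparisons.

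Treated Il1b was 5.69-fold lower (3.56 to 9.07) in Tmem173-/-, 5.42-fold lower (3.38 to 8.68) in Irf1-/- and 2.49-fold lower (1.56 to 3.98) in Irf3/7-/- BMDCs than in WT BMDCs. Treated Il1a was 5.66-fold lower (3.26 to 9.93) in Tmem173-/- and 2.66-fold lower (1.57 to 4.49) in Irf1-/- BMDCs, and differed by -0.55 on the log2 scale with overlapping intervals in Irf3/7-/- BMDCs. For both agonists the treated Irf1-/- level was below the treated Irf3/7-/- level without overlap of the intervals. Treated Il18bp was 30.8-fold lower (17.4 to 57.3) in Tmem173-/- and 28.0-fold lower (16.1 to 49.9) in Irf1-/- BMDCs, and differed by -0.38 on the log2 scale with overlapping intervals in Irf3/7-/- BMDCs. Treated Il1rn was lower in Tmem173-/- BMDCs by 3.44-fold (2.12 to 5.56), and its log2 differences of -0.46 in Irf1-/- and 0.29 in Irf3/7-/- BMDCs were not called. The log2 difference of Il1rn between treated Irf1-/- and WT BMDCs has a range of ratios from 0.448 to 1.19, so a moderate decrease is within the intervals. Treated Il18 was called lower in Irf3/7-/- BMDCs (log2 -1.10) and was not called in Irf1-/- BMDCs (log2 -0.90). These knockouts' intervals overlap, and the call in Irf3/7-/- BMDCs was lost with a pseudocount of 1 FPKM.

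Of the 12 comparisons of a receptor gene between a treated knockout and treated WT BMDCs, 6 were called higher and none lower. Of all genes compared 12.9%, 2.65% and 4.61% were called higher in Tmem173-/-, Irf1-/- and Irf3/7-/- BMDCs, and 13.5%, 4.91% and 2.69% lower. The calls of Il1r1 all rest on the same treated WT value of 0.925 FPKM, so they are not separate observations. Il1r1 was 2.37-fold higher (1.35 to 4.32) in Tmem173-/-, 3.52-fold higher (2.02 to 6.38) in Irf1-/- and 3.62-fold higher (2.08 to 6.53) in Irf3/7-/- BMDCs, of which the call in Tmem173-/- BMDCs was lost with a pseudocount of 1 FPKM. Il1r2 was 9.01-fold higher (4.81 to 17.4) in Tmem173-/- and 2.89-fold higher (1.55 to 5.59) in Irf3/7-/- BMDCs, and its log2 difference of 0.29 in Irf1-/- BMDCs was not called. Il1rl1 was 17.7-fold higher (10.5 to 30.4) in Tmem173-/- BMDCs, and its log2 difference of 0.58 in Irf1-/- BMDCs was not called. In Irf3/7-/- BMDCs Il1rl1 had a log2 difference of 0.97 with intervals that did not overlap, just within the 2-fold limit. Il1rap had log2 differences of 0.22, 0.48 and -0.29 in Tmem173-/-, Irf1-/- and Irf3/7-/- BMDCs, none of them called.

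**Figure D3:**
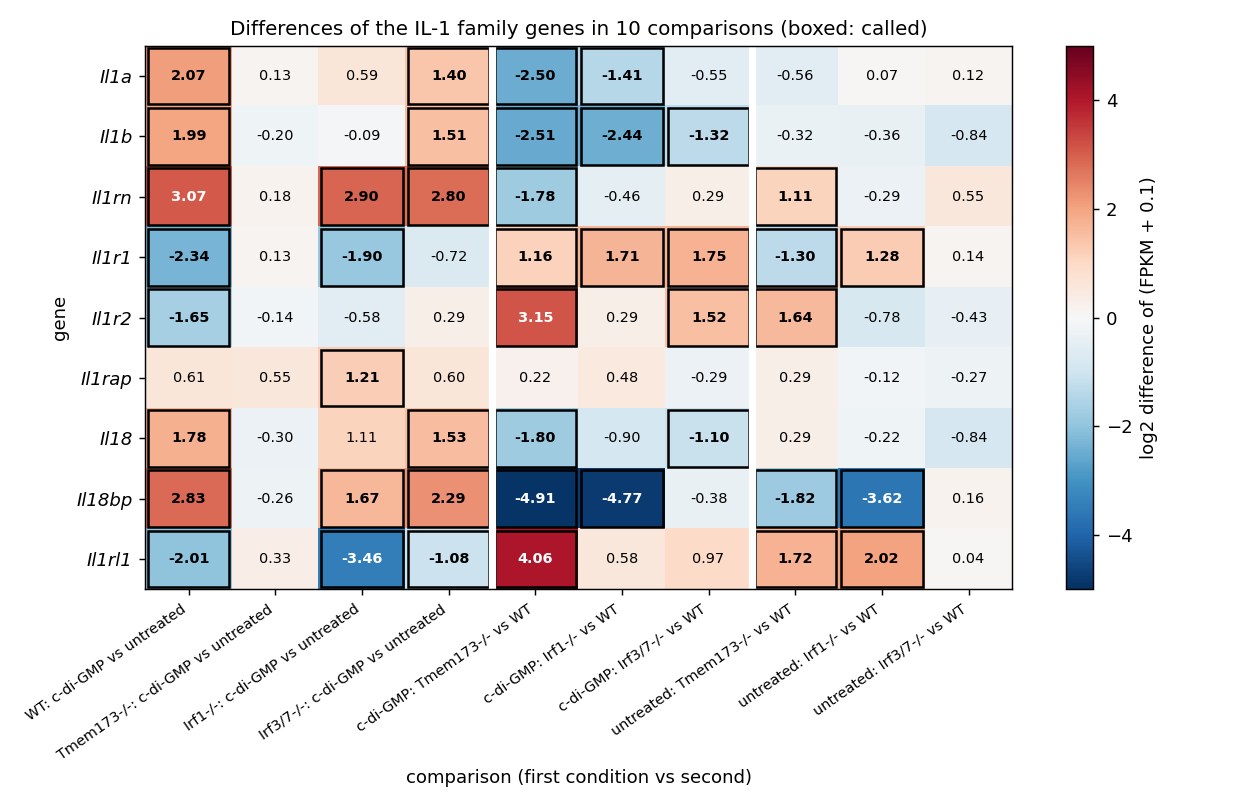
Differences in log2(FPKM + 0.1) of the 9 IL-1 family genes (rows) in 10 comparisons (columns), each the named condition minus its reference, blue for lower and red for higher. Boxed values are called, and the columns for c-di-GMP against untreated Tmem173-/- BMDCs and for untreated Irf3/7-/- against WT BMDCs hold no box.

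Some differences between genotypes were present without stimulation. In untreated Tmem173-/- BMDCs Il1rn, Il1r2 and Il1rl1 were higher and Il1r1 and Il18bp were lower than in untreated WT BMDCs, where 5.04% of 11101 genes were called higher and 5.95% lower. In untreated Irf1-/- BMDCs Il1r1 and Il1rl1 were higher and Il18bp was lower, where 1.26% of 11017 genes were called higher and 3.52% lower. In untreated Irf3/7-/- BMDCs none of the 9 genes was called, where 1.17% of 11004 genes were called higher and 0.863% lower. Il18bp was 13.2-fold lower (6.98 to 28.2) in untreated Irf1-/- and 3.59-fold lower (2.03 to 6.52) in untreated Tmem173-/- BMDCs. Il1rl1 was 4.11-fold higher (2.50 to 6.92) in untreated Irf1-/- and 3.33-fold higher (1.91 to 5.82) in untreated Tmem173-/- BMDCs. Il1r1 differed in opposite directions, 2.45-fold higher (1.46 to 4.28) in untreated Irf1-/- and 2.54-fold lower (1.4 to 4.53) in untreated Tmem173-/- BMDCs. Il1a and Il1b were not called in any untreated knockout, and the log2 difference of Il1b nearest the limit was -0.84 in Irf3/7-/- BMDCs, with intervals that did not overlap.

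The response of each gene within a knockout can be set beside that in WT BMDCs, although the difference of 2 responses was not tested. For Il1b the log2 response was -2.08 away from WT in Irf1-/- and -0.48 away in Irf3/7-/- BMDCs. For Il1a the same differences were -1.48 and -0.67, for Il18bp -1.15 and -0.54, and for Il1rn -0.17 and -0.26. The receptors differed from one another: the response of Il1rl1 differed from that in WT by -1.45 in Irf1-/- and by 0.93 in Irf3/7-/- BMDCs, that of Il1r1 by 0.44 and 1.62, and that of Il1r2 by 1.07 and 1.94.

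Other genes of the pathway were taken from a list of 45, all present in the table. In WT BMDCs 14 of the 39 that reached the level for comparison were called higher and 1 lower, beside 10.5% and 9.96% of all genes compared, and in Tmem173-/- BMDCs none of 37 was called. In Irf1-/- BMDCs 11 of 38 were called higher and 4 lower (9.67% and 7.81% of all genes), and in Irf3/7-/- BMDCs 12 of 39 higher and none lower (10.2% and 7.68% of all genes). Their median log2 change was 0.46 in WT, 0.33 in Irf1-/-, 0.51 in Irf3/7-/- and 0.02 in Tmem173-/- BMDCs. Over all genes compared the same medians were 0.00, 0.00, 0.00 and -0.02 in this order.

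Of the 6 other ligand genes 3 were measurable in WT BMDCs, and all 3 were called higher, beside 10.5% of all genes compared. Il33, the ligand of ST2, was at 4.58 and 21.6 FPKM in WT, 6.01 and 67.8 in Irf1-/-, 15.9 and 9.63 in Irf3/7-/- and 5.06 and 5.72 in Tmem173-/- BMDCs. It was thus higher in treated Irf1-/- and lower in treated Irf3/7-/- than in treated WT BMDCs, whereas Il1b was lower in both. Il1f9, the gene of IL-36γ, was at 3.87 and 28.3 FPKM in WT, 2.65 and 16.3 in Irf1-/-, 5.46 and 65.7 in Irf3/7-/- and 40.7 and 36.4 in Tmem173-/- BMDCs. Il1f6, the gene of IL-36α, was at 0.0955 and 2.37 FPKM in WT, 0.102 and 0.476 in Irf1-/-, 0.262 and 4.89 in Irf3/7-/- and 0.818 and 0.647 in Tmem173-/- BMDCs, and was called lower in treated Irf1-/- and Tmem173-/- BMDCs than in WT BMDCs. Il1f5, Il1f8 and Il1f10 were at or near 0 throughout.

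Among 6 other receptor genes, 1 of 3 compared was called lower in WT and 4 of 4 were called lower in Irf1-/- BMDCs, namely Il18r1, Il18rap, Il1rl2 and Sigirr. Of all genes compared 9.96% and 7.81% were called lower. Il18r1, at 0.582 and 0.335 FPKM in WT BMDCs, was below the level for comparison there. The log2 changes of Il1rl2 (-1.004) and Sigirr (-1.024) in Irf1-/- BMDCs only just passed the 2-fold limit. In WT BMDCs they were -0.28 and -0.62 and were not called. Il18rap, a chain of the IL-18 receptor, was at 3.79 and 1.42 FPKM in WT, 4.84 and 1.67 in Irf1-/-, 4.05 and 3.36 in Irf3/7-/- and 6.19 and 9.56 in Tmem173-/- BMDCs. Of 13 genes of maturation and release, Casp1 and Casp4 were called higher in WT BMDCs, Casp1, Casp4 and Gsdmd in Irf1-/- and Casp4 in Irf3/7-/- BMDCs. Of all genes compared 10.5%, 9.67% and 10.2% were called higher in WT, Irf1-/- and Irf3/7-/- BMDCs. Gsdmd, the gene of the pore-forming gasdermin D, was at 62.8 and 126 FPKM in WT and 43.1 and 94.4 FPKM in Irf1-/- BMDCs, and its ratio of 1.999 in WT, with intervals that did not overlap, was just short of the 2-fold limit that its ratio of 2.19 in Irf1-/- BMDCs passed. Casp1, the protease that cleaves pro-IL-1β and pro-IL-18, was at 49.5 and 157 FPKM in WT, 20.4 and 68.7 in Irf1-/-, 64.6 and 102 in Irf3/7-/- and 38.2 and 32.1 in Tmem173-/- BMDCs. Both untreated and treated, it was called lower in Irf1-/- than in WT BMDCs. Of 11 signalling genes, Irak2 and Traf6 were called higher in WT, Irf1-/- and Irf3/7-/- BMDCs, beside 10.5%, 9.67% and 10.2% of all genes compared. None of the 11 was called between treated Irf1-/- or Irf3/7-/- and treated WT BMDCs. Of all genes compared 2.65% were called higher and 4.91% lower in treated Irf1-/- than in treated WT BMDCs. For treated Irf3/7-/- BMDCs these shares were 4.61% and 2.69%.

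Of 9 genes that IL-1 is known to induce, 7 were called higher in WT, 4 of 8 compared in Irf1-/- and 7 in Irf3/7-/- BMDCs. The shares of all genes called higher were 10.5%, 9.67% and 10.2%. Many other signals induce these genes too. Ptgs2, the gene of cyclooxygenase-2, was at 1.28 and 92.1 FPKM in WT, 0.187 and 0.843 in Irf1-/-, 1.62 and 125 in Irf3/7-/- and 0.130 and 0.195 in Tmem173-/- BMDCs, and was the 1 gene of this list called lower in treated Irf1-/- than in treated WT BMDCs. Il6 was at 21.5 and 339 FPKM in WT, 13.5 and 228 in Irf1-/-, 17.5 and 580 in Irf3/7-/- and 2.56 and 3.09 in Tmem173-/- BMDCs, and was called lower than in treated WT BMDCs only in the Tmem173-/- cells. The plot of the pathway response shows these groups by genotype.

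**Figure D4:**
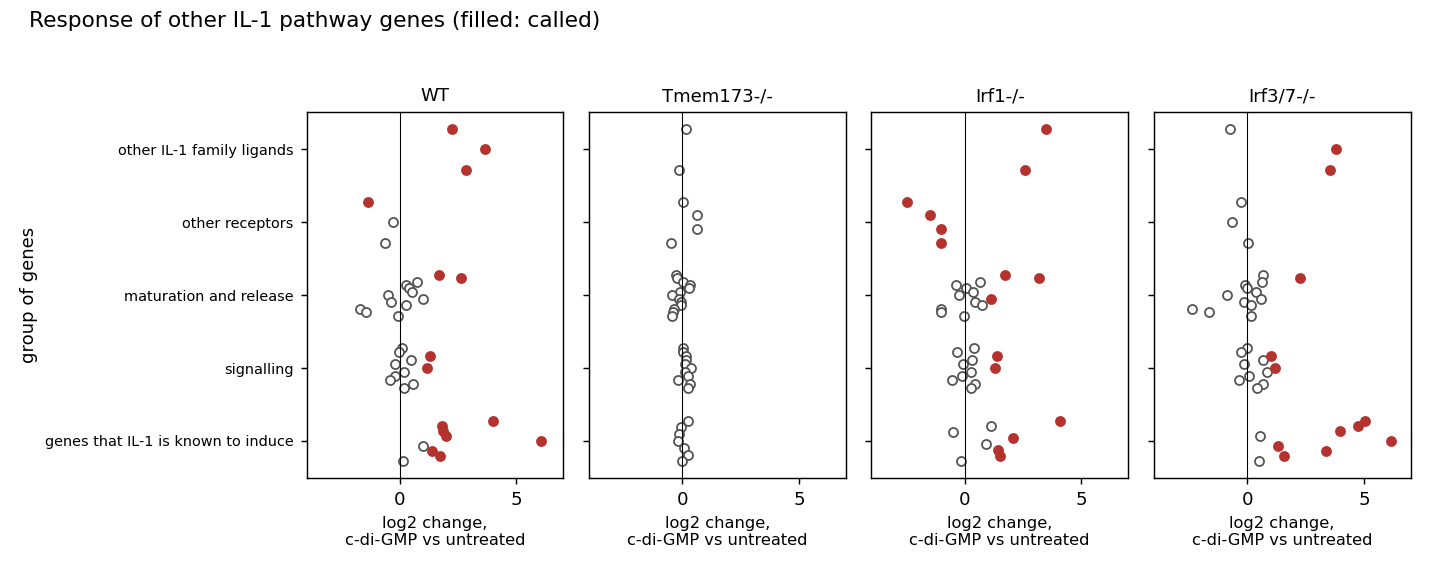
Log2 change of FPKM after c-di-GMP (horizontal axis) for genes of 5 groups of the IL-1 pathway (vertical axis), in the 4 genotypes, 1 point per gene that reached the level for comparison. Filled points are called, and in Tmem173-/- BMDCs no point is filled.

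The genes whose log2 levels were most like those of each of the 9 genes over the 8 conditions were looked up among genes that reached 10 FPKM in at least 1 condition, 7381 in number or 7382 for Il18. The points are 8 pooled conditions, 4 of which share the treatment, and the correlations are given as a description. Il18bp was nearest to Abhd16a (Pearson's r 0.99), AW112010 (0.98) and Bcl2l11 (0.98), and Il1rn to Rhov, Smim3 and Apobec1 (each 0.99). Il1r2 was nearest to Ltb (0.99), Amz1 (0.98) and Mid1ip1 (0.98), Il1rl1 to Add3 (0.99), Bicd2 (0.99) and Man2b1 (0.98), and Il1r1 to P2ry1 (0.97), Anxa6 (0.96) and Psmd1 (0.95). Il1a was nearest to Mroh1 (0.99), Nxf1 (0.98) and Cdc42ep4 (0.98), and Il1b to Rrbp1, Faf2 and Stx2 (0.95, 0.95 and 0.95), whose rank correlations with Il1b were 0.71, 0.64 and 0.48. Il18 was nearest to Zbtb7b (0.98), Plscr1 (0.97) and Lactb (0.97), and Il1rap to Ugdh (0.97), Lrrc58 (0.96) and Tmem65 (0.96). Il1a and Il1b themselves correlated at 0.85, Il1b and Il18 at 0.84, and Il1a and Il1rl1 at -0.85, over 8 conditions.

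In the annotation (GENCODE M21, GRCm38) Il1a lies at chr2:129299610-129309972 and Il1b at chr2:129364570-129371139, both on the minus strand, and Il1rn at chr2:24336853-24351494. Il1r2 (chr1:40074079-40125231), Il1r1 (chr1:40225080-40317257) and Il1rl1 (chr1:40429570-40465415) lie within 1 stretch of chromosome 1 on the plus strand, and were not highest in the same condition: Il1r1 was highest in untreated Irf1-/-, Il1r2 in untreated Tmem173-/- and Il1rl1 in treated Tmem173-/- BMDCs. Il1rap lies at chr16:26581704-26730117, Il18 at chr9:50554827-50581840 and Il18bp at chr7:102014885-102018690 on the minus strand. The rows of Gm14023, Gm14047 and Gm16894 overlap those of Il1a, Il1b and Il1r2. Each of these 3 was below 1 FPKM in every condition, against at least 62.9, 85.9 and 6.16 FPKM for the genes they overlap.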

How the data were processed

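Stranded mRNA libraries were sequenced as paired-end reads, and the authors deposited a Cuffdiff table with 1 FPKM per condition, in which the 2 samples of a condition were combined, each with a lower and an upper confidence bound and a status. The submitters' processing notes name Cuffdiff 1.06 and the build mm9. For the aligner, the annotation and the strand setting of the Cuffdiff run nothing was given in the sources used here. The loci of the table overlapped the GRCm38 gene of the same name for 21454 of 21681 genes (99.0%), so coordinates are given in GRCm38. One column name, for treated Tmem173-/- BMDCs, is abbreviated differently from the others and was read by its name. The table has 4 columns of 1 further condition, which were not used.

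FPKM were compared as log2(FPKM + 0.1) in 10 comparisons, for genes with at least 1 FPKM in either condition and the status OK in both. A call needed more than 2-fold and intervals that did not overlap. Such intervals combine counting error with the spread Cuffdiff estimated, which cannot be checked against replicates here, and nothing in the sources used here says whether the 2 samples came from separate animals. As alternatives the pseudocount was set to 1 or 0.01 FPKM, the minimum to none or 5 FPKM and the threshold to 1.5 or 4, and calls were repeated with median-centred columns and with the fold or the intervals alone.

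The 9 genes, the pathway and marker lists and the motifs were chosen with earlier results of these data known. The text names all 9 genes, the targeted genes, listed pathway genes, and for each of the 9 the 3 genes of highest Pearson's r. Promoters came from RefSeq. Scripts ran under python 3.11.15 with pandas 2.3.3, numpy 2.4.6 and matplotlib 3.10.9.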

Additional observations from a re-analysis of the deposited data

How the results depend on the processing

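No paired analysis was possible because the deposited table holds a single value per condition, and no replicate was left out for the same reason. Over the 9 genes, the 10 comparisons and 9 alternatives 790 values were computed, of which 751 kept their direction and their side of the limit, 29 lost a call, 10 gained one and 0 changed direction. Median centring moved no condition by more than 0.04 on the log2 scale and changed no call. Of 43 calls, 34 were kept under the 8 alternatives other than the threshold of 4, where a gene no longer compared counted as not kept. A minimum of 5 FPKM kept 35 of the 43 in this way, and no gene still compared under it lost its call. With a pseudocount of 1 FPKM 4 calls were lost, those of Il18 and Il1rl1 in the response of Irf3/7-/- BMDCs, of Il1r1 in treated Tmem173-/- against WT BMDCs and of Il18 in treated Irf3/7-/- against WT BMDCs.

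A threshold of 4-fold left 18 of the 43 calls. By its construction it left 5 genes called in WT BMDCs, 2 in Irf1-/- and 2 in Irf3/7-/- BMDCs among the responses within a genotype, 5 in treated Tmem173-/-, 2 in treated Irf1-/- and 0 in treated Irf3/7-/- against treated WT BMDCs, and 0 in untreated Tmem173-/- against WT BMDCs. A minimum of 5 FPKM left 6 genes to compare between treated Irf3/7-/- and WT BMDCs, of which 2 were called. Between untreated Irf3/7-/- and WT BMDCs 1 gene, Il1b, was called lower with a threshold of 1.5, and 1, again Il1b, with the intervals alone. With Spearman's rho in place of Pearson's r, 0 of the 3 genes named as most like Il1a, and 0 of those for Il1b, ranked among the 10 nearest. The depth of the samples is unknown, and for Il18, at under 5 FPKM throughout, the intervals are the widest of the 9 genes.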
